A study of Mus musculus with 21 samples.

Results

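The FGF ligand and feedback response genes are 10 genes: the ligands Fgf8 and Fgf15, and the genes Spry1, Spry2, Spry4, Dusp6, Etv4, Etv5, Spred1 and Il17rd. They were found by gene symbol on Affymetrix Mouse 430 2.0 arrays, where 25 probe sets (groups of probes that read 1 transcript region) carry one of these symbols, and for each gene the one whose signal varied most over all arrays was used. All 10 were found, out of 18193 genes measured in the same way. The choice of genes and of probe sets uses no group label. The spread over all arrays does include differences between groups, so the choice can favour probe sets with larger differences. The arrays read total RNA of purified post-mitotic neurons made from mouse embryonic stem cells, with 3 arrays, labelled as biological replicates, in each of 7 groups. Nothing in the labels says that the replicates came from separate cultures.

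Of the FGF8 groups, 2 came from the Lmx1a line, at day 14 and at day 10 of differentiation with sonic hedgehog (SHH) and FGF8, the labels calling these mature and immature mesencephalic dopamine neurons. The Nkx2.2 line with SHH and FGF8 was sampled at day 10 and is labelled as rostral hindbrain serotonergic neurons. Wild type cells with FGF8 were sampled at day 10 and are labelled as neurons of the dorsal midbrain. Of the groups with retinoic acid (RA), the Nkx2.2 line with SHH and RA was sampled at day 10 (caudal hindbrain serotonergic neurons). The Olig2 line with SHH and RA was sampled at day 8 (somatic motor neurons), as were wild type cells with RA (dorsal hindbrain neurons). The titles of the wild type samples name SHH and their source names do not, so where a line is set against wild type cells, SHH and the line may not be separable. In the 3 lines the label NesE stands for a nestin enhancer, active in neural progenitors, which drives the named transcription factor. How many clones made up a line was not stated.

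Fibroblast growth factors bind receptor tyrosine kinases, which pass the signal through Ras to the kinase ERK. A cell that receives the signal switches on its own inhibitors, so the RNA of these inhibitors is widely used as a readout of FGF activity. Fgf8 is the main signal of the isthmic organizer, which patterns the midbrain and the anterior hindbrain, and Fgf15, the mouse counterpart of human FGF19, is another secreted ligand made in the developing midbrain and hindbrain. Sprouty genes (Spry1, Spry2, Spry4) and Spred1 encode inhibitors of the Ras to ERK cascade. Dusp6 encodes a phosphatase that inactivates ERK, and Il17rd, also called Sef, a membrane protein that restrains FGF signalling. Etv4 and Etv5 are ETS transcription factors induced by FGF.

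Since Etv4 and Etv5 bind DNA at a GGAA core, the promoter sequence of feedback genes that varied together is shown with that core, searched on both strands, in capitals (GGAA, or TTCC where it lies on the other strand). Over the 21 arrays the centred signal of Etv5 correlated with that of Spred1 at r = 0.80, with that of Spry1 at r = 0.79 and with that of Dusp6 at r = 0.76. These coefficients are descriptions over 21 arrays that fall into 7 groups and that share the array type and processing. The windows are the 250 bases before the start site in RefSeq, build GRCm38.p6, for Dusp6 (chr10:99262981-99263230, plus strand), Spred1 (chr2:117120821-117121070, plus strand), Spry1 (chr3:37639697-37639946, plus strand) and the upstream start of Etv5 (chr16:22439571-22439820, minus strand), each written 5′ to 3′ on the strand of the gene.
Dusp6: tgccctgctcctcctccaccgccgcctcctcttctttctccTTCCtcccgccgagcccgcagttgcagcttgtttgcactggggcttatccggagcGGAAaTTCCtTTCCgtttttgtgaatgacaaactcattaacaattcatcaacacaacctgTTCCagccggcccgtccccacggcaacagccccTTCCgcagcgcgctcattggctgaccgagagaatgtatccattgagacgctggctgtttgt
Spred1: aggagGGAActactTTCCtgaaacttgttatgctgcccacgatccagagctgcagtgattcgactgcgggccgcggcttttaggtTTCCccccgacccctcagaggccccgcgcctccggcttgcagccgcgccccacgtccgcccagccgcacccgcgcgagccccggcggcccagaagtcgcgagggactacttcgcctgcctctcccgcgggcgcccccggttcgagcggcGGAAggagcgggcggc
Spry1: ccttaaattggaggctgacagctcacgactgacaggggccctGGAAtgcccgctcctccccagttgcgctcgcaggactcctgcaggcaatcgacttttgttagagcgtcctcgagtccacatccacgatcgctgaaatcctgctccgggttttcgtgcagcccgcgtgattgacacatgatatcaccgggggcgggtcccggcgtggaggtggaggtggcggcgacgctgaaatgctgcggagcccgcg
Etv5: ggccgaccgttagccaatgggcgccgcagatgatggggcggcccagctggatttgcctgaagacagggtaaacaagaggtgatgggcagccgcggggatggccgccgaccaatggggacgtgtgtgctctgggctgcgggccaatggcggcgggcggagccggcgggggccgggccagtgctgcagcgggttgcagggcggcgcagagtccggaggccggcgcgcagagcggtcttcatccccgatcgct
The core occurs 6 times in the Dusp6 window, 4 times in that of Spred1, once in that of Spry1 and 0 times in that of Etv5. With a C before it (CGGAA, a subset of the same sites) it occurs 3 times in the Dusp6 window, once in that of Spred1 and 0 times in the other windows shown. Of all 32851 windows of this length, 93.4% hold at least 1 GGAA, with a median of 3, and 8.69% hold 6 or more. CGGAA is found in 25.2% of windows, and 2.12% hold 3 or more. A match of so short a motif describes the letters and is no binding site, and a window without it says nothing about the factor. Sites were counted in windows of 6 of the 10 genes. No window was found for Fgf8, Fgf15 and Etv4, and Spry4 was left out. The windows of Spry2 and Il17rd, with 3 and 4 sites, and that of a second start of Etv5, with 4, are not shown.

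Each value below is a log2 signal minus the median of its probe set over 27 arrays, called here a centred log2 signal. It shows how an array differs from the middle of the set, while the level of a gene, and its level relative to another gene, cannot be read from it. For the same reason it cannot be checked whether a neuronal marker is present or absent. Differences are between means of 3 arrays on the log2 scale, so that 1 is a doubling, with a standard error and an adjusted p from limma over 18193 genes. A gene was called where the adjusted p was under 0.05 and the difference was at least 1 in size. Fewer cells that express a gene and less of its RNA per cell cannot be told apart in such bulk samples.

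The arrays themselves differed in ways that touch these genes. The gene that names each line was highest by group mean in that line. Nkx2-2 stood at 0.13 on 1 array of its line with FGF8, below 0.20 on an Olig2 line array, and Olig2 also stood at 4.89 in the Lmx1a line (day 10, replicate 3). No pair of arrays was identical. The bioC hybridization controls divided the arrays into 2 apparent batches, A with 9 arrays and B with 12, which no label names. In batch A lay every day 10 array of the Lmx1a line. From each of 3 further groups (the wild type cells with FGF8, the Olig2 line, and the Lmx1a line at day 14) it held replicates 1 and 2. The labelling controls stood at -3.83 to -3.68 in the Lmx1a line at day 10, below every other array.

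**Figure D1:**
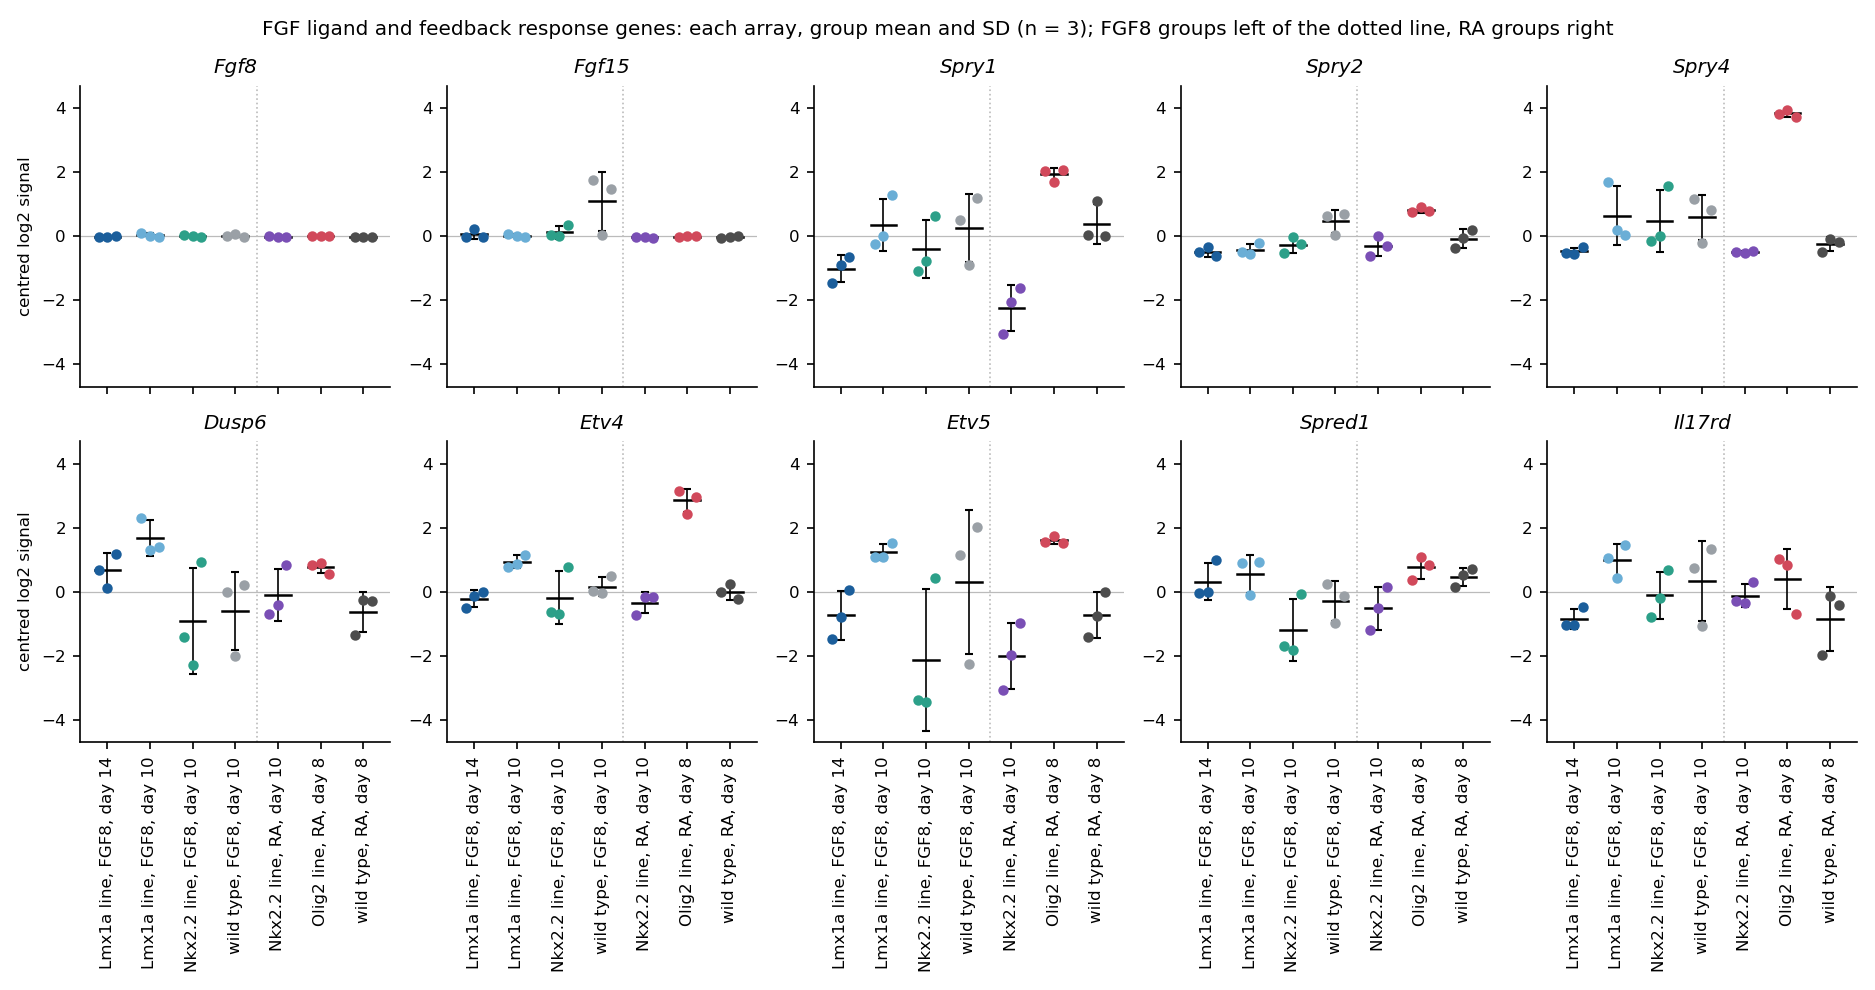
Centred log2 signal (vertical axis) of the 10 genes on each of 21 arrays, in 7 groups of 3; points are arrays, black lines the group mean and SD, with the 4 FGF8 groups left of the dotted line and the 3 RA groups right of it. Spry4 and Etv4 stand highest in the Olig2 line, at 3.74 to 3.96 and 2.44 to 3.15, and Fgf8 lies within a range of 0.14 over all arrays.

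Across the 7 groups the feedback genes did not sort by FGF8 and RA. The highest arrays of Spry1, Spry2, Spry4 and Etv4 all belonged to the Olig2 line, which received RA. Dusp6 was the 1 gene of the 10 whose 3 highest arrays were the 3 of a single FGF8 group, the Lmx1a line at day 10. The ligand Fgf8 was flat, and the ligand Fgf15 was raised on 2 arrays of the wild type cells with FGF8. The plot of centred signals by group shows these patterns side by side.

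Fgf8 has a single probe set on the array, and its values ran from -0.03 to 0.11 over all 21 arrays. Its SD of 0.033 was larger than that of 3.85% of the genes measured. The profile followed the median profile of the least variable probe sets to within 0.015 (r = 0.995). A probe set with such a profile gives no reading of whether the gene was off or merely unmeasured, and the differences of Fgf8 in the comparisons below ran from -0.05 to 0.04.

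Fgf15 stood at 1.75, 0.05 and 1.48 in replicates 1 to 3 of the wild type cells with FGF8. Every other array lay between -0.05 and 0.37, the highest of them being replicate 3 of the Nkx2.2 line with FGF8. The signal of this ligand was therefore high on 2 arrays of 1 group, and the third array of that group overlapped the other groups. The genes whose signal was most like it over the 21 arrays were Pax7, a dorsal midbrain transcription factor (r = 0.98), Pls1 (r = 0.97) and Ndst3 (r = 0.97).

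Spry4, an inhibitor of the Ras to ERK cascade, stood at 3.83, 3.96 and 3.74 in the Olig2 line. Its other 18 arrays ran up to 1.70, in the Lmx1a line (day 10, replicate 1). The groups next in order, the Lmx1a line at day 10 (mean 0.64), the wild type cells with FGF8 (0.59) and the Nkx2.2 line with FGF8 (0.48), overlapped each other. The Nkx2.2 line with RA was lowest by mean, at -0.49, -0.50 and -0.47, and overlapped the Lmx1a line at day 14 and the wild type cells with RA. Over the 21 arrays the genes most like Spry4 were Fap (r = 0.91), Etv4 (r = 0.91) and Cyp26a1, which encodes an enzyme that degrades retinoic acid (r = 0.90).

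Etv4, an ETS factor, had its highest arrays in the same line, at 3.15, 2.44 and 2.96. The Lmx1a line at day 10 came next, at 0.76, 0.87 and 1.15, and did not overlap the Olig2 line. The remaining 5 groups lay between -0.73 and 0.77. The genes most like Etv4 were Pde8a (r = 0.92), Spry4 and Card10 (r = 0.90).

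Spry1 stood at 2.03, 1.69 and 2.09 in the Olig2 line and at -3.04, -2.06 and -1.60 in the Nkx2.2 line with RA, so that the highest and the lowest group of this inhibitor were both RA groups. Neither overlapped any other group. The 5 groups between them ran from -1.46 to 1.29 and overlapped their neighbours. Its closest profiles were those of Hmga2 (r = 0.89), Elovl5 (r = 0.89) and Chrna3 (r = 0.88).

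Spry2 varied less. It stood at 0.76, 0.93 and 0.80 in the Olig2 line, just above the highest array of the wild type cells with FGF8 (0.65, 0.04 and 0.72). The other 15 arrays lay between -0.63 and 0.21. Cyp26b1, another enzyme that degrades retinoic acid, was among the 3 genes most like it (r = 0.91), after Shisa3 (r = 0.92) and before G2e3 (r = 0.90).

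Dusp6, the ERK phosphatase, was highest in the Lmx1a line at day 10, at 2.31, 1.29 and 1.40. The Lmx1a line at day 14 had 0.69, 0.11 and 1.19. Under FGF8 the Nkx2.2 line had -1.43, -2.28 and 0.94, a spread that covers most of the range of the other groups. Suox (r = 0.88), Axl (r = 0.88) and Inppl1 (r = 0.87) were most like it.

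Etv5 had the widest range of the 10 genes, 5.46 log2 units. In the Nkx2.2 line with FGF8 it stood at -3.38, -3.45 and 0.42, and in wild type cells with FGF8 at 1.14, -2.25 and 2.01. In each of these FGF8 groups 1 array lay more than 3 units from the others. The Olig2 line, at 1.56, 1.75 and 1.52, and the Lmx1a line at day 10, at 1.09, 1.07 and 1.52, were both high and close together.

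Spred1, which 8 probe sets read, was lowest by mean in the Nkx2.2 line with FGF8, at -1.69, -1.83 and -0.08. It was highest by mean in the Olig2 line, at 0.37, 1.08 and 0.82, which overlapped the Lmx1a line at both days and the wild type cells with RA. On some of its other probe sets the Olig2 line did not overlap the wild type cells with RA, and on others it did. Il17rd ran from -1.99, in replicate 1 of the wild type cells with RA, to 1.45, in the Lmx1a line (day 10, replicate 3). The genes most like Il17rd were Nusap1, Tpx2 and Cdk1 (each r = 0.86), which act in the mitotic spindle and the cell cycle.

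That likeness touches the purity of the neurons. The mean centred signal of 7 cycling-cell genes was 2.11, -1.63 and 2.74 in the wild type cells with FGF8, against 0.43 to 1.10 in the Lmx1a line at day 10 and -1.92 to -1.10 at day 14. Leaving Fgf8 aside, all 9 other genes were lowest in replicate 2 of the wild type cells with FGF8 among the 3 arrays of that group, where 29.1% of all genes were lowest. In the Nkx2.2 line with FGF8, 8 of the 9 were highest in replicate 3, where 29.6% of all genes were highest. Labelling controls of that group stood at 1.43, 1.25 and -1.12. What part dividing cells had in these values was not tested. The labelling controls were entered as a covariate of each comparison. The outcome is given below for some of the values, and at the end as counts of called genes where these moved.

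**Figure D2:**
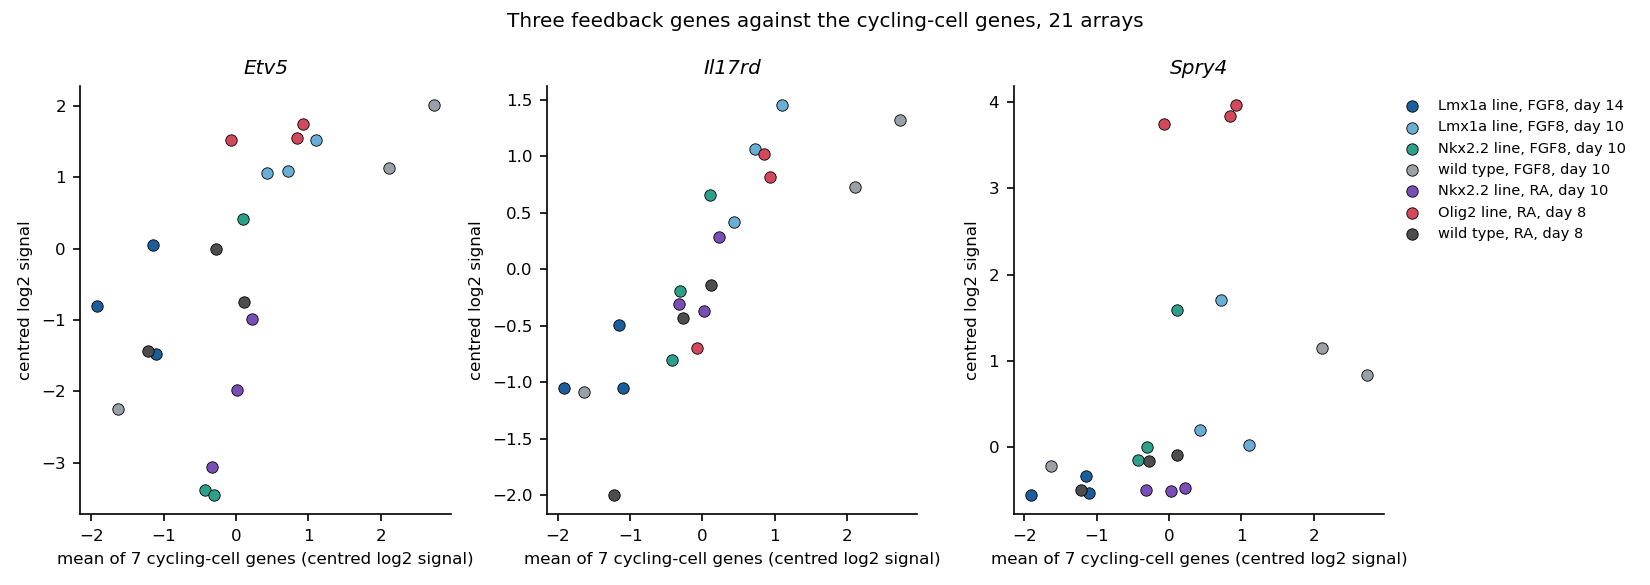
Centred log2 signal of Etv5, Il17rd and Spry4 (vertical axes) against the mean centred log2 signal of 7 cycling-cell genes (horizontal axes), 1 point per array, coloured by group, 21 arrays. Replicate 2 of the wild type cells with FGF8 lies at -1.63 on the horizontal axis, far from 2.11 and 2.74 in its group, and the 3 Spry4 values of the Olig2 line at 3.74 to 3.96 lie apart from arrays of like position.

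Line and day are held fixed where FGF8 and RA are compared within the Nkx2.2 line at day 10, and none of the 10 genes was called there. Of all genes 4.31% were called in either direction, and 1 of the 10, Spry1, had an unadjusted p under 0.05, against 18.8% of all genes. The median difference of the 10 genes was 0.04, and that of all genes 0.03. The largest differences above 0 were those of the inhibitors Spry1 and Spry4, at 1.84 and 0.97, and the largest below 0 were those of Dusp6 and Spred1, at -0.83 and -0.68. Over the 8 Spred1 probe sets, tested singly, the difference ran from -1.25 to 0.07, and none was called. In the Nkx2.2 line the 3 genes without overlap between the groups were Fgf15, Spry1 and Spry4, where 22.7% of all genes did not overlap. For Fgf15 the gap was small: its arrays ran from 0.00 to 0.37 with FGF8, against -0.05 to -0.02 with RA. Its difference was 0.16 ± 0.28.

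Spry1 in this line stood at -1.07, -0.77 and 0.65 with FGF8, against -3.04, -2.06 and -1.60 with RA. All FGF8 arrays were above all RA arrays. The difference was 1.84 ± 0.58 (SE, n = 3 each), with an adjusted p of 0.0716 by limma and a 95% interval of 0.61 to 3.07. Spry4 stood at -0.15, 0.00 and 1.59 with FGF8, against -0.49, -0.50 and -0.47 with RA, so replicate 3 carried most of the difference of 0.97 ± 0.46 (limma adjusted p = 0.271). With the labelling controls as a covariate Spry1 differed by 1.60 and Spry4 by 0.73, while Dusp6 moved to -1.43 and Spred1 to -1.12, all without a call. Of the cell type lists, 2 of 8 neuronal genes were called higher with FGF8 in this line, and 1 of 6 astroglial and 1 of 4 oligodendrocyte precursor genes lower. The intervals of the other genes all included 0: for Etv5 -2.34 to 2.09, for Dusp6 -2.37 to 0.72, for Il17rd -1.33 to 1.36, and for Etv4 -0.53 to 0.85. Differences of 1 in either direction thus lie within the intervals of Etv5 and Il17rd, and the interval of Etv4 holds none of that size.

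In wild type cells FGF8 at day 10 was compared with RA at day 8, so that treatment and day cannot be told apart. Fgf15 was the 1 gene of the 10 called, and it was higher with FGF8. Called in either direction were 7.40% of all genes, and called higher 3.11%. The median difference of the 10 genes was 0.35, against 0.05 for all genes. Fgf15 was also the 1 gene without overlap, where 36.0% of all genes did not overlap.

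Fgf15 stood at 1.75, 0.05 and 1.48 in wild type cells with FGF8, against -0.05, -0.02 and 0.00 with RA. Replicate 2 with FGF8 lay just above the RA arrays. The difference was 1.12 ± 0.28 (SE, n = 3 each; limma adjusted p = 0.0194). The call was lost without replicate 1 with FGF8 (0.79, adjusted p = 0.0939), without replicate 3 with FGF8 (0.92, adjusted p = 0.0889), without RA replicate 1 (1.11, adjusted p = 0.0577) or RA replicate 2 (1.12, adjusted p = 0.0592), and when limma was fitted to the 6 arrays alone (adjusted p = 0.26). Within batch B, where FGF8 replicate 3 met the 3 RA arrays, the difference was 1.51 (adjusted p = 0.00119), with the lone array taken to vary like the others.

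The feedback genes of wild type cells gave no call, though array weights called some of them, as given at the end. Etv5 stood at 1.14, -2.25 and 2.01 with FGF8, against -1.43, -0.75 and 0.00 with RA, a difference of 1.03 ± 1.04. Il17rd stood at 0.73, -1.09 and 1.32 with FGF8, against -1.99, -0.14 and -0.43 with RA, a difference of 1.17 ± 0.63. In both genes 2 FGF8 arrays lay above all RA arrays, while replicate 2 with FGF8 lay below the RA arrays in Etv5 and among them in Il17rd. The neural progenitor genes Sox1 and Sox2 were called higher in the same comparison (2 of 11 progenitor genes, 0 lower), and none of 7 cycling-cell genes was called by limma (2 at an unadjusted p under 0.05), with a median difference of 1.29. Mesenchymal genes had 0 of 7 called higher and 1 lower, with means of -0.86, -1.59 and 0.26 with FGF8, against -0.19, 3.23 and 2.59 with RA. Astroglial genes had 2 of 6 called lower with FGF8 and neural crest genes 2 of 5, with none higher in either list. The part of such cells in the values of the feedback genes was not tested.

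**Figure D3:**
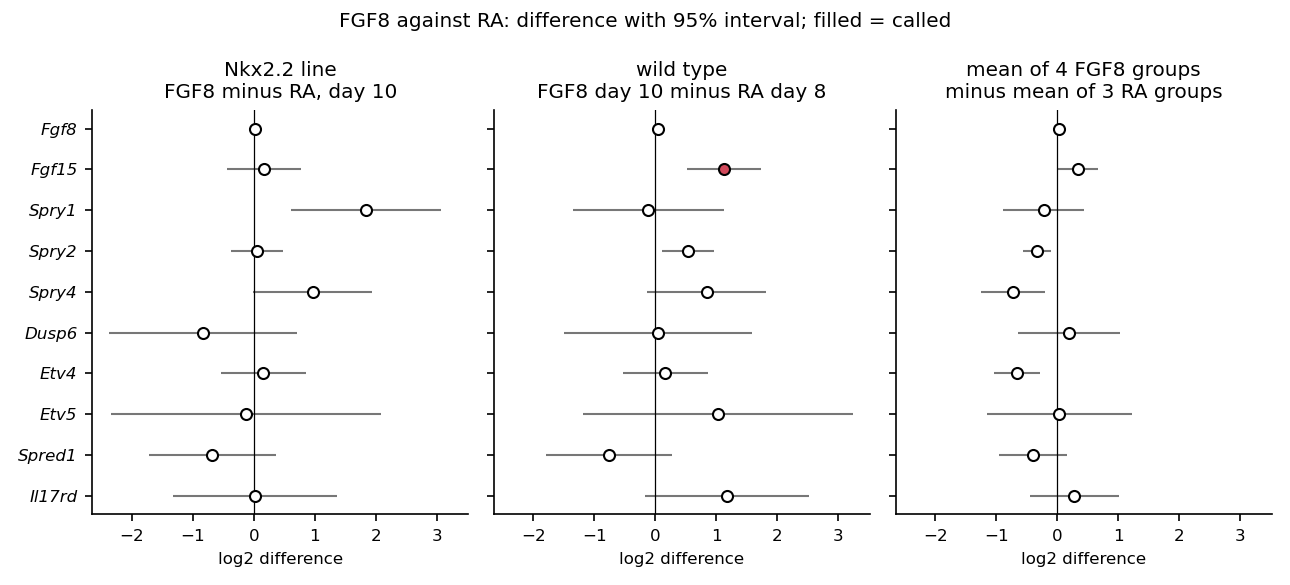
Differences between FGF8 and RA (horizontal axes, log2) for the 10 genes in the Nkx2.2 line, in wild type cells and over all groups; points are differences, lines their 95% intervals, and a filled point marks a called gene. The 1 filled point is Fgf15 in wild type cells, at 1.12, and the Etv5 intervals are the widest in each panel.

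Whether the difference between FGF8 and RA was unlike in the Nkx2.2 line and wild type cells was tested as an interaction. Its wild type part sets day 10 against day 8, which cannot be told apart from the treatment. None of the 10 genes was called, where 4.38% of all genes were, and 2 of the 10 had an unadjusted p under 0.05 in limma, against 19.5% of all genes. Those 2 were Spry1, at 1.96 ± 0.82 (adjusted p = 0.193), and Fgf15, at -0.95 ± 0.40 (adjusted p = 0.197), the sign being the FGF8 effect in the Nkx2.2 line minus that in wild type cells. Leaving out arrays of the wild type cells with FGF8 moved Fgf15 both ways: without replicate 2 it was called, at -1.48 (adjusted p = 2.05e-05), and without replicate 1 it was -0.62 (adjusted p = 0.43). The mean of the FGF8 effects of both lines also holds the days of the wild type cells. It gave 0 of 10 calls by limma (5.38% of all genes, and 2 of 10 against 26.1% at an unadjusted p under 0.05). These were Spry4, at 0.90 ± 0.32 (limma adjusted p = 0.0835), and Fgf15, at 0.64 ± 0.20 (limma adjusted p = 0.0489, under the size required). Of the 10 differences 8 were above 0, with a median of 0.37, against 0.04 over all genes. Below 0 were Spred1, at -0.72 ± 0.34, and Dusp6, at -0.39 ± 0.51. With the labelling controls as a covariate the count of calls was above 0, as given at the end.

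The mean of the 4 FGF8 groups minus that of the 3 RA groups again gave 0 calls among the 10 genes, and 3.92% of all genes were called. The count among the 10 was above 0 with the labelling controls as a covariate, as given at the end. Line and day differ along with the treatment here. At an unadjusted p under 0.05 limma gave 4 of the 10, against 25.4% of all genes. No gene of the 10 separated the FGF8 arrays from the RA arrays, as 0.280% of all genes did. Etv4 averaged 0.17 in the FGF8 groups and 0.83 in the RA groups, a difference of -0.66 ± 0.18 with an adjusted p of 0.0219 by limma, which is under the size required. With the Olig2 line left out of the RA groups it was 0.35, with the opposite sign (adjusted p = 0.231). The direction of Etv4 over all groups thus rests on that line. Spry4 differed by -0.73 ± 0.25 (limma adjusted p = 0.0718), Spry2 by -0.32 ± 0.11 (limma adjusted p = 0.0661) and Spry1 by -0.22 ± 0.31. Each was highest by mean in the Olig2 line too. Spry4 averaged 0.31 in the FGF8 groups, against 3.84 in the Olig2 line, -0.49 in the Nkx2.2 line with RA and -0.25 in wild type cells with RA. Spry1 averaged -0.19, against 1.94, -2.23 and 0.39 in the same order, and Spry2 -0.17, against 0.83, -0.31 and -0.07.

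The largest differences of these genes in any comparison lay between groups that received RA. In the Olig2 line against wild type cells, both at day 8 with RA, Spry4 and Etv4 were called higher. None of the 10 was called lower, all 10 differences were above 0, and their median was 1.32, against 0.043 over all genes. Fgf8 and Fgf15, at 0.036 and 0.020, lay below that median of all genes, so their sign says nothing of these genes. Called in either direction were 10.4% of all genes, and called higher 5.50%. The arrays of 7 of the 10 genes did not overlap, a share near the 61.7% of all genes without overlap.

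Spry4 stood at 3.83, 3.96 and 3.74 in the Olig2 line, against -0.49, -0.09 and -0.16 in wild type cells with RA. The lowest Olig2 array was thus far above the highest wild type array. The difference was 4.09 ± 0.46, or 17.0 times (SE, n = 3 each; limma adjusted p = 2.7e-05). Of the 4 Spry4 probe sets 2 were called when each was tested singly, with differences between 0.15 and 4.09, and the mean of all 4 rose by 1.63. Within batch B, where Olig2 replicate 3 alone met the 3 wild type arrays, the difference was 3.99. The Olig2 line has 1 array there, so this value has no spread of its own.

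Etv4 stood at 3.15, 2.44 and 2.96 in the Olig2 line, against -0.02, 0.23 and -0.25 in wild type cells with RA. Again the groups did not overlap. The difference was 2.86 ± 0.33, or 7.26 times (limma adjusted p = 3.19e-05), and 2.97 within batch B, again with 1 Olig2 array. The second Etv4 probe set differed by 0.52 (adjusted p = 0.00857 when probe sets were tested singly), and the mean of both by 1.69.

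The other feedback genes also had differences above 0 in the Olig2 line, and none was called. Spry2 stood at 0.76, 0.93 and 0.80, against -0.36, -0.04 and 0.21 in wild type cells with RA, and its difference of 0.90 ± 0.20 had an adjusted p of 0.0062 by limma but was under 1. Spry1 differed by 1.55 ± 0.58 (limma adjusted p = 0.0833). Etv5 stood at 1.56, 1.75 and 1.52, against -1.43, -0.75 and 0.00, a difference of 2.34 ± 1.04 (limma adjusted p = 0.154), and 2 of its 3 probe sets were called when tested singly. Dusp6 differed by 1.40 ± 0.72, Il17rd by 1.23 ± 0.63 and Spred1 by 0.30 ± 0.49. Over the 8 Spred1 probe sets, tested singly, that difference ran from 0.07 to 1.02, and none was called.

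Beside these differences, 6 of 10 retinoic acid response genes were called higher in the Olig2 line and none lower, with a median difference of 2.46. Among them Cyp26b1, an enzyme that clears retinoic acid, rose by 8.24 and Rarb, a receptor for it, by 2.43 (limma adjusted p = 6.16e-09 and 0.0341). Of 21 other ERK feedback and response genes 0 were called higher and 1 lower, and of 12 FGF receptors and coreceptors 0 and 1. The mesenchymal genes had 0 of 7 called higher and 2 lower, with means of -0.87, -0.99 and -0.03 in the Olig2 line, against -0.19, 3.23 and 2.59 in wild type cells with RA. Cycling-cell genes had none of 7 called by limma (0 at an unadjusted p under 0.05), with means of 0.84, 0.93 and -0.07 against -1.22, 0.11 and -0.27. Astroglial genes had 0 of 6 called higher and 2 lower, with means of -0.64 to -0.58 in the Olig2 line, against -0.03 to 1.12 in wild type cells. Neural crest genes had 0 of 5 higher and 2 lower, with means of 0.63 to 0.85 in the Olig2 line, against 1.14 to 2.29 in wild type cells, so that neither list overlapped between the groups. The part of such cells in the differences of Spry4 and Etv4 was not tested.

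In the Nkx2.2 line at day 10 against wild type cells at day 8, both with RA, the inhibitor Spry1 fell and no other of the 10 genes was called. Called in either direction were 18.0% of all genes, and called lower 9.16%. Line and day cannot be told apart in this comparison. Spry1 stood at -3.04, -2.06 and -1.60 in the Nkx2.2 line, against 0.04, 1.12 and 0.00 in wild type cells. Every Nkx2.2 array lay below every wild type array, and the difference was -2.62 ± 0.58 (SE, n = 3 each; limma adjusted p = 0.00298). All these arrays belong to batch B. With the labelling controls as a covariate the difference was -2.31 (adjusted p = 0.0132). Beside it, neuronal genes had 0 of 8 called higher and 2 lower, with means of -0.19, -0.18 and -0.75 in the Nkx2.2 line, against 0.25, 0.06 and 0.46 in wild type cells. Neural crest genes had 1 of 5 higher and 2 lower, with means of 0.19 to 0.55 in the Nkx2.2 line, against 1.14 to 2.29 in wild type cells. Of 11 neural progenitor genes 3 were called higher and 1 lower, and of 6 astroglial genes 2 and 1. The part of these cells in the difference of Spry1 was not tested.

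The remaining genes in that comparison had differences from -1.28, in Etv5, to 0.73, in Il17rd. Their median with Spry1 was -0.24, against 0.01 over all genes, and 3 of the 10 did not overlap, where 43.1% of all genes did not. Of the 21 genes listed as other ERK feedback and response genes, 1 was called higher and 6 lower. Among the lower ones were Lzts1, at -2.80 ± 0.39, and the phosphatase genes Dusp7, at -2.44 ± 0.39, and Dusp4, at -1.23 ± 0.24 (limma adjusted p = 7.65e-05, 0.000263 and 0.00132). This comparison and that of the Olig2 line share the wild type arrays with RA.

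Among the FGF8 groups at day 10, Fgf15 was lower in the Lmx1a line than in wild type cells, and it was the 1 gene of the 10 called. Called in either direction were 3.31% of all genes, and called lower 1.36%. Labelling controls were low on all Lmx1a arrays, at -3.83, -3.68 and -3.75, against -0.46, -0.98 and -0.27 in wild type cells, so that group and labelling cannot be told apart here. Fgf15 stood at 0.08, 0.01 and -0.03 in the Lmx1a line, against 1.75, 0.05 and 1.48 in wild type cells, and replicate 2 of the wild type cells overlapped the Lmx1a line. The difference was -1.07 ± 0.28 (limma adjusted p = 0.0431), and the call held in 8 of 20 alternatives. It was lost without wild type replicate 1 (-0.74) or 3 (-0.88) and without any 1 Lmx1a array.

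Dusp6 in that comparison stood at 2.31, 1.29 and 1.40 in the Lmx1a line, against 0.00, -2.0 and 0.20 in wild type cells. The groups did not overlap, and the difference of 2.27 ± 0.72 had an adjusted p of 0.0962 by limma. With the labelling controls as a covariate it was 0.13 (adjusted p = 0.954). Spry2 stood at -0.50, -0.55 and -0.22 in the Lmx1a line, against 0.65, 0.04 and 0.72, a difference of -0.89 ± 0.20 that passed the adjusted p (0.0191) but not the size. With Etv4, 3 of the 10 genes did not overlap, where 15.9% of all genes did not. The same wild type arrays enter the comparison with the Nkx2.2 line under FGF8, where none of the 10 genes was called by limma (4.53% of all genes, and 3 of 10 against 19.1% at an unadjusted p under 0.05). There all 10 differences were below 0, from -2.44 in Etv5 to -0.01 in Fgf8, with a median of -0.55 against -0.01 over all genes. Fgf8 lay at about that median of all genes, so its sign says nothing of the gene. Of the 10, Spry2 alone did not overlap, where 21.2% of all genes did not.

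In the Lmx1a line, day 14 against day 10, the ETS factor Etv4 fell, and 9 of the 10 differences were below 0. The median difference was -1.06, against -0.05 over all genes. Fgf8, at -0.05, lay at about that median of all genes. Called in either direction were 4.24% of all genes, and called lower 1.28%. Etv4 stood at -0.50, -0.15 and 0.00 at day 14, against 0.76, 0.87 and 1.15 at day 10. The days did not overlap, and the difference was -1.15 ± 0.33 (SE, n = 3 each; limma adjusted p = 0.0475). That p is close to the threshold: the call was lost when any 1 of the 6 arrays was left out (adjusted p from 0.059 to 0.17), and with the labelling controls as a covariate, where the difference was -0.40 (adjusted p = 0.618). Under that covariate Dusp6, Etv5 and Spred1 differed by 1.12, 0.68 and 1.31, against -1.01, -1.97 and -0.25 without it, so their direction between the days was not stable.

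Il17rd stood at -1.05, -1.05 and -0.49 at day 14, against 1.06, 0.42 and 1.45 at day 10. The difference of -1.84 ± 0.63 had an adjusted p of 0.0964 by limma. Etv5 stood at -1.48, -0.81 and 0.05 at day 14, against 1.09, 1.07 and 1.52 at day 10, a difference of -1.97 ± 1.04 (limma adjusted p = 0.257). In both genes the days did not overlap, as in 6 of the 10 genes and in 20.9% of all genes. Cycling-cell genes had 0 of 7 called higher and 1 lower, with a median difference of -2.21, and their means were -1.10, -1.92 and -1.15 at day 14, against 0.72, 0.43 and 1.10 at day 10. Labelling controls were -0.33, 0.36 and -1.80 at day 14, against -3.83, -3.68 and -3.75 at day 10, without overlap. Astroglial genes had 1 of 6 called higher and none lower, with means of 0.45 to 1.12 at day 14, against -0.29 to -0.17 at day 10. The part of cycling or astroglial cells in these values was not tested.

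**Figure D4:**
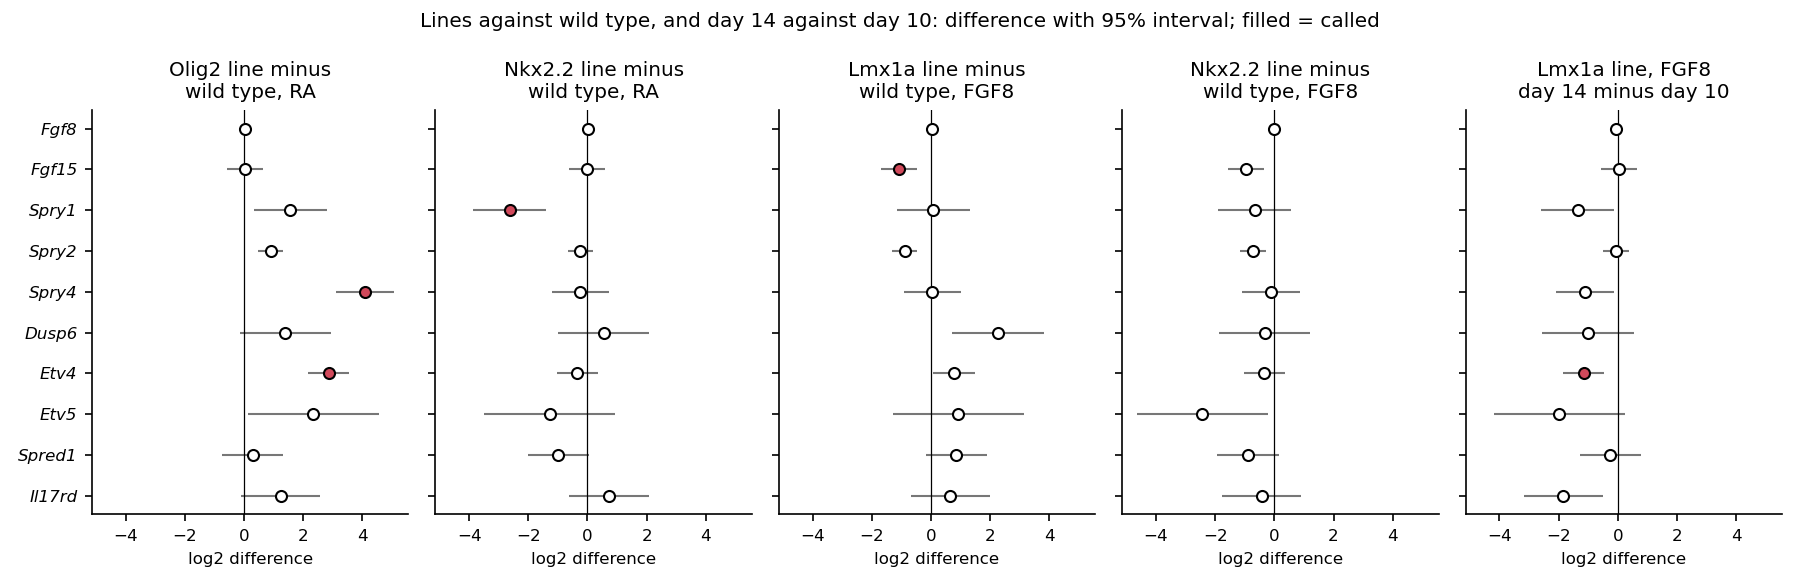
Differences (horizontal axes, log2) of the 10 genes between each line and wild type cells and between day 14 and day 10 of the Lmx1a line; points are differences, lines their 95% intervals, and a filled point marks a called gene. Spry4 at 4.09 and Etv4 at 2.86 in the Olig2 line lie farthest above 0, and Spry1 at -2.62 in the Nkx2.2 line with RA farthest below it among the filled points.

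The other genes of the pathway were counted from lists by role. Of 16 other FGF ligands, none was called by limma between FGF8 and RA in the Nkx2.2 line or in wild type cells, and 1 and 0 had an unadjusted p under 0.05. Of 12 FGF receptors and coreceptors, none was called by limma in either, and 4 and 2 had an unadjusted p under 0.05. The FGF homologous factors, which stay inside the cell and regulate sodium channels, had 2 of 4 lower with FGF8 in the Nkx2.2 line and 1 of 4 in wild type cells, and none higher. Fgf12 fell by 2.05 ± 0.30 in the Nkx2.2 line and by 1.66 ± 0.30 in wild type cells (limma adjusted p = 0.000744 and 0.00265), and Fgf14 fell by 2.74 ± 0.55 in the Nkx2.2 line (adjusted p = 0.00701).

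Of 13 measured adaptors and kinases of the ERK cascade none was called by limma in the Nkx2.2 line (1 at an unadjusted p under 0.05), and 1, the adaptor Grb2, was lower with FGF8 in wild type cells, at -1.05 ± 0.24 (limma adjusted p = 0.0101). Of 21 genes listed as other ERK feedback and response genes, 2 were higher with FGF8 in the Nkx2.2 line. They were Lzts1, at 1.68 ± 0.39, and Dusp4, an ERK phosphatase, at 1.12 ± 0.24 (limma adjusted p = 0.0155 and 0.0113). Lzts1 is counted by the list alone, and its place in ERK feedback was not checked. In wild type cells 1 was lower, the phosphatase gene Dusp7, at -1.37 ± 0.39 (limma adjusted p = 0.034). No gene of that list was called in both.

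Genes of regional identity were called in both directions. Of 10 isthmus and midbrain patterning genes, 2 were higher and 1 lower with FGF8 in the Nkx2.2 line, and 2 were higher and 2 lower in wild type cells. Cnpy1, named here after its values were seen, was the lower gene in the Nkx2.2 line and was among the higher ones in wild type cells. Otx2, which marks forebrain and midbrain, was higher with FGF8 in the Nkx2.2 line by 4.22 ± 1.15 and in wild type cells by 5.42 ± 1.15 (limma adjusted p = 0.0377 and 0.00695). In the Nkx2.2 line its FGF8 arrays ran from 0.00 to 6.33, against -0.89 to 0.37 with RA. En1, a midbrain and anterior hindbrain factor maintained by the isthmic organizer, was higher with FGF8 in the Nkx2.2 line by 3.19 (limma adjusted p = 0.000243). Its mean in wild type cells was -0.04 with FGF8, against -0.0005 with RA. In wild type cells Gbx2, an anterior hindbrain factor, averaged 2.65 with FGF8, against 5.71 with RA, and Pax8 averaged 0.26 with FGF8, against 6.02 with RA. These 2 genes fell by 3.06 and 5.76 (limma adjusted p = 0.000104 and 3.52e-08).

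The retinoic acid response genes gave different counts with the line held fixed and over all groups. With FGF8 in the Nkx2.2 line 1 of 10 was called higher and 0 lower, with a median difference of 0.01, and in wild type cells 3 were higher and 2 lower, with a median of -0.16. Over all groups 8 of 10 were called lower in the FGF8 groups and none higher, with a median of -2.25, against -0.10 for the 10 FGF ligand and feedback genes. That last comparison differs in line and includes the Olig2 line, in which 6 of these 10 genes were higher than in wild type cells with RA.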

How the data were processed

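Per the labels, 2 ug of total RNA gave the biotinylated cRNA hybridized to Affymetrix Mouse 430 2.0 arrays. The deposited log2 signals were made by the authors with GCRMA, as the submitters' processing notes name it (the sources used here give no version). The deposited log2 values are also centred: no probe set has more than 13 values above or below 0, and 79.2% hold an exact 0, as centring on the median of 27 arrays gives. Of these, 21 are analysed and 6 are not used here. Centring keeps differences between arrays and removes levels.

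Of 45101 probe sets, 64 controls were set aside, 34945 have 1 gene symbol in the platform annotation, 932 have several and 9160 are unnamed here. Each of 18193 genes was read by the probe set that varied most (SD over 21 arrays), with no filter on low values. Limma 3.58.1 in R 4.3.3 fitted 1 mean per group over all 21 arrays (14 residual and 1.11 prior degrees of freedom), so the error of a difference uses the spread of all groups. P values are 2-sided and were adjusted over all genes by the Benjamini-Hochberg method. The number of arrays, 3 a group, limits the precision, and where replicates are not separate cultures the p values measure technical spread. The tests were also tried on simulated noise with the residual SD of each gene. There 200 genes per run, of 18193, were changed in the Nkx2.2 line with FGF8. For FGF8 against RA in that line, 52.2% of changes of 1.5, 70.6% of 2 and 86.4% of 3 were recovered, and 1.42% of calls were false. A gene without a call may therefore still differ.

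Named are the 10 genes in every group and comparison, the line genes, up to 4 called genes per list with the largest differences between FGF8 and RA, and for each of the 10 the 3 genes most correlated with it. These genes and the lists were chosen with earlier results of these data known. The apparent batches come from the bioC controls and no label. Replicate numbers did not pair the arrays: residuals of 63 same-numbered pairs correlated at a mean of 0.00603, against -0.00337 for 126 other pairs. Alternatives were a replicate block, only the arrays compared, the mean of a gene's probe sets, probe sets without a name suffix, array weights (estimated gene by gene, as the default did not converge), trended robust moderation (statmod 1.5.0), median-centred arrays, a filter on range, a stricter p, the batch as a block, and leaving out arrays. Those added after seeing the data were the labelling controls as a covariate, fits within a batch, single probe sets, and the RA groups without the Olig2 line.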

Additional observations from a re-analysis of the deposited data

How the results depend on the processing

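Of 100 differences (10 genes in 10 comparisons), 6 were called, and 3 of these held in each of their 20 alternatives: Spry4 and Etv4 in the Olig2 line and Spry1 in the Nkx2.2 line with RA. The alternative of single probe sets counts here the same probe set of each gene, so it tests little. Of all their probe sets, 2 of 4 for Spry4 and 1 of 2 for Etv4 were called in the Olig2 line, and Spry1 has 1 probe set. Among 2250 recomputed differences a change of sign was counted only where the gene was called above or under the alternative, and 0 were counted. Differences called in neither could change sign uncounted, as those of Dusp6, Etv5 and Spred1 between the days did with the labelling covariate. The numbers of genes called among the 10 were most sensitive to array weights, which gave 3 for FGF8 and RA within the Nkx2.2 line, 4 in wild type cells, 4 for the interaction, 3 for the Lmx1a line and 6 for the Nkx2.2 line against wild type cells with FGF8, 3 and 5 for the Nkx2.2 and Olig2 lines against wild type cells with RA, and 4 for day 14 against day 10. The replicate block, though the numbers do not pair the arrays, gave 1 for FGF8 and RA within the Nkx2.2 line (Spry1, adjusted p = 0.0369) and 0 for the Lmx1a line against wild type cells, and the filter on range gave 1 in the Nkx2.2 line. Without 3 arrays that were chosen with earlier results of these data known (the Lmx1a line's day 10 replicate 1, replicate 2 of wild type with FGF8, replicate 1 of the Nkx2.2 line with FGF8) the counts were 2 in the Nkx2.2 line, 2 in wild type cells, 2 for the mean of both, 1 for the interaction, 2 for the Lmx1a line and 1 for the Nkx2.2 line against wild type cells with FGF8, and 0 for day 14. Only the arrays compared gave 0 in wild type cells and for the Lmx1a line, as did an adjusted p under 0.01, which also gave 0 for day 14. Median-centred arrays gave 0 for the Lmx1a line and for day 14. Day 14 also had 0 with the mean of all probe sets, with trended robust moderation and with each probe set singly. The batch as a block and batch A alone gave 0 for the Lmx1a line, and batch B alone 1 for the interaction and 1 for the Nkx2.2 line against wild type cells with FGF8. With the labelling controls as a covariate the counts were 1 for the mean of both FGF8 effects, 2 over all groups, and 0 for the Lmx1a line and for day 14. Leaving out 1 array at a time gave 0 to 1 in wild type cells, for the mean of both and for the interaction, 0 to 2 for the Lmx1a line and for the Nkx2.2 line against wild type cells with FGF8, and 0 for day 14. With array weights the genes called in wild type cells were Etv5 (1.95), Fgf15 (1.74), Il17rd (1.43) and Spry4 (1.33), all higher with FGF8. Those called in the Nkx2.2 line were Spry1 (1.55), higher with FGF8, and Dusp6 (-1.66) and Spred1 (-1.10), both lower. The cause of these shifts was not tested.

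Counts over all genes moved as well. With only the arrays compared, 273 in place of 785 genes were called for FGF8 and RA within the Nkx2.2 line, 735 in place of 1346 in wild type cells, 168 in place of 603 for the Lmx1a line and 344 in place of 825 for the Nkx2.2 line against wild type cells with FGF8, and 402 in place of 772 for day 14. Array weights gave 1851, 2663, 2069, 2389 and 2299 in the same order, and 1583 in place of 979 for the mean of both lines and 3448 in place of 796 for the interaction. An adjusted p under 0.01 gave 405, 624, 291, 431 and 400, and 597, 235 and 1183 (in place of 1884) for the mean, the interaction and the Olig2 line. The mean of all probe sets gave 859 in wild type cells, 630 for the mean of both and 1220 for the Olig2 line, and the batch as a block 817 in wild type cells. Within a batch 458, 635, 308, 489 and 513 were called in the Nkx2.2 line, for the mean, for the Lmx1a line, the Olig2 line and day 14. The labelling covariate gave 442 in place of 713 over all groups, 48 for the Lmx1a line and 403 for day 14. Without the 3 arrays the interaction had 1629. Single arrays left out moved counts over all genes beyond 1.5 times in wild type cells (800 to 806), the interaction (404 to 1516), the Lmx1a line (358) and the Nkx2.2 line against wild type cells with FGF8 (429 to 536).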
